A study of Mus musculus with 18 samples.

Results

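RNA held inside ribosomes was compared with total mRNA in the brains of 3 male mice lacking Ftsj1 (Ftsj1 KO, C57BL/6, 8 weeks old). These make up 6 of the 18 libraries of the series: the total mRNA and the ribosome-contained mRNA library of KO mice 1, 2 and 3, both read on a HiSeq and paired by mouse number. The members were taken by genotype, instrument and library kind as labelled, and no wild-type library entered the comparison. The other 12 libraries are 6 HiSeq libraries of 3 wild-type (WT) male mice of the same strain and age, used below for 1 contrast, and 6 MiSeq libraries not used here. No mouse was treated, per the labels, which do not name the knockout allele.

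Ftsj1 encodes an enzyme that methylates the ribose of nucleotides in the anticodon loop of certain tRNAs. In ribosome profiling, RNA that is not shielded by a ribosome is digested and the protected fragments are sequenced, so that the count of an mRNA in the ribosome library follows both how much of it there is and how densely ribosomes cover it. Set against total mRNA of the same brain, such counts rank mRNAs by ribosome load. Nuclease-resistant structured RNAs and RNA inside other particles can also yield fragments. Per the labels' protocols, lysates of the frozen brains went either to ribosome profiling or to purification of total RNA with selection of polyadenylated RNA, so the library kinds differ in this selection as well as in ribosome content, and its part in any result below was not tested.

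The total libraries held 3338746, 3301634 and 3459406 counts (KO mice 1 to 3) and the ribosome libraries 1055741, 1142062 and 1059111. Levels below are in CPM (counts scaled to a common library size) after TMM scaling, listed for KO mice 1, 2 and 3 in that order unless given as mean ± SD (n = 3 mice). The ratio is ribosome-contained over total, on a log2 scale. Both accessions of Ftsj1 were at a count of 0 in all libraries, so the knockout could not be checked. Of 18 defining markers of brain cell types and blood, 7 could be tested. Csf1r, a marker of microglia, was at 0 in each KO library. How reads shared by several transcript accessions of a gene were counted is not given, so a 0 sets no limit on expression.

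Of 4083 transcript rows tested, 1583 (38.8%) were higher and 1541 (37.7%) lower in ribosome-contained than in total mRNA, so 3124 rows (76.5%) passed and 959 did not (edgeR quasi-likelihood test paired by mouse, adjusted p under 0.05). A change of at least 2-fold was found for 480 rows (11.8%) upward and 685 (16.8%) downward. The quartiles of the log2 ratios were -0.65 and 0.60, and the median 0.03. Since counts are relative, higher and lower are measured against the average row. Scaling by total counts in place of TMM moved the median ratio up by 0.34, and the calls then split into 2176 higher and 1072 lower. Of the 3124 called rows, 3067 had the same sign in each of the 3 mice, and 2655 kept their call and direction under total counts.

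**Figure D1:**
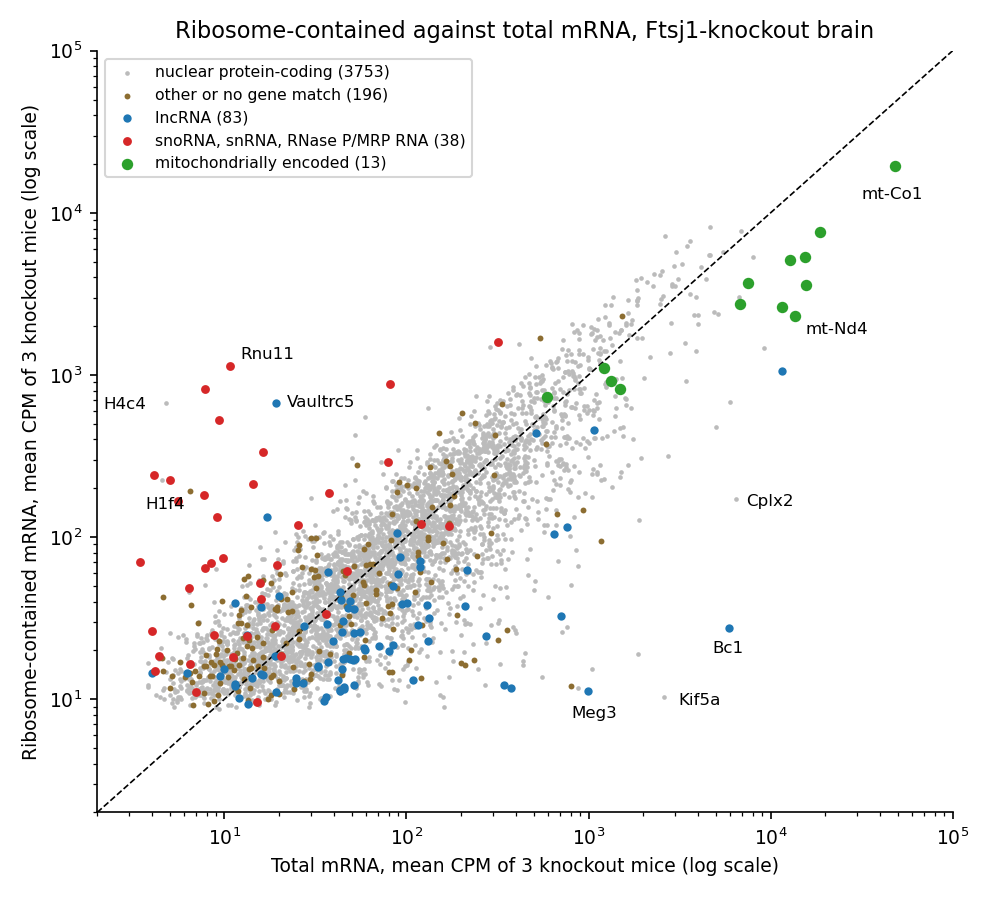
Each point is 1 transcript row; the x axis gives its mean CPM in total mRNA and the y axis its mean CPM in ribosome-contained mRNA of the 3 KO mice, both on log scales, coloured by RNA class with the number of rows in brackets. The dashed line marks equal levels. All mitochondrially encoded rows but mt-Nd6 and most lncRNA lie below it, small nuclear and nucleolar RNA mostly above it.

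Nuclear protein-coding rows took 78.9% ± 0.167 of the counts in total mRNA and 89.4% ± 0.408 in ribosome-contained mRNA (SD, n = 3 mice each). The difference had the same sign in each mouse, and the two-sided exact sign-flip permutation test gave p = 0.25, the smallest that 3 pairs allow. The same p holds for each class share given next. Long noncoding RNA (lncRNA) took 3.11% ± 0.203 of total and 0.787% ± 0.0441 of ribosome counts. Messages encoded by mitochondrial DNA took 13.7% ± 0.504 and 6.33% ± 0.306. Small nuclear and nucleolar RNA with RNase P and MRP RNA, which act in splicing and in RNA maturation, stood at 0.125% ± 0.00538 of total and 1.23% ± 0.0778 of ribosome counts, a 9.91-fold higher share. Rows of miRNA genes held 1.05% ± 0.0573 and 0.0641% ± 0.0174, a 16.4-fold lower share in the ribosome libraries. A further 53 miRNA rows passed the filter in total mRNA only, and 6 entered the test.

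Long noncoding RNAs were mostly lower in the ribosome libraries. Of 83 lncRNA rows tested, 58 were lower and 12 higher, with a median log2 ratio of -1.05, against 37.7% lower and 38.8% higher over all rows. In a list of 33 brain lncRNAs, 15 were measured, 14 were lower and none was higher (13 lower under total counts), with a median of -1.47. Malat1, a nuclear RNA of speckles, was at 13013, 11014 and 10848 CPM in total mRNA and at 1443, 962 and 780 in ribosome-contained mRNA. Every ribosome library lay below every total library, although KO mouse 1 stood apart from the others in the ribosome fraction, and the log2 ratio was -3.48 (SE 0.165, adjusted p = 0.00128, edgeR). The most counted of 3 accessions of Meg3, an imprinted RNA of the Dlk1-Dio3 locus, had 1180, 863 and 935 CPM against 14.3, 9.31 and 10.02 (log2 ratio -6.46, SE 0.0910). Norad, a cytoplasmic RNA that binds Pumilio proteins, had 348.9, 338.8 and 339.5 CPM against 10.1, 14.0 and 12.5 (log2 ratio -4.80, SE 0.123). In both, the lowest total library exceeded the highest ribosome library many times over. Mir124a-1hg, the host transcript of a neuronal miRNA, fell by 4.43 on the log2 scale. Of the 6 miRNA rows tested, 3 were higher and 1 lower, with a median of 0.43; Mir15a was at 1.30, Mir136 at 1.04 and Mir7-2 at 0.96. The 1 that fell, the let-7c-1 row, had 235 ± 9.30 CPM in total mRNA and 17.6 ± 7.49 in ribosome-contained mRNA (log2 ratio -3.75, SE 0.139). Its mature product is printed below from RefSeq (GRCm38), with the seed, the bases 2 to 8 that pair with target mRNAs, in capitals; the libraries do not show whether the counts came from the mature or the precursor RNA.
mmu-let-7c-5p: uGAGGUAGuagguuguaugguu

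Small structured RNAs went both ways. In a list of 26, 13 were measured, 8 of them higher and 5 lower, with a median log2 ratio of 1.88. Shown are 5 RNAs that carry this contrast, with large ratios in either direction or, for the Y RNAs, a pair of relatives that went opposite ways; the capitals mark the longest run of A in each, or the first of several, as found by a search of the GENCODE M21 transcript (GRCm38). Bc1 lies at chr7:144914470-144914637 (plus strand), Rny3 at chr6:47781624-47781725 (plus strand), Rny1 at chr6:47788069-47788180 (minus strand), Rnu11 at chr4:132270080-132270213 (minus strand) and Snord12 at chr2:167065276-167065365 (plus strand).
Bc1: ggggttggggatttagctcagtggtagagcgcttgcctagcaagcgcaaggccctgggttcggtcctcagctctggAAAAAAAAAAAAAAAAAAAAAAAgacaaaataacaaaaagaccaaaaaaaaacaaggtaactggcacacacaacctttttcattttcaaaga
Rny3: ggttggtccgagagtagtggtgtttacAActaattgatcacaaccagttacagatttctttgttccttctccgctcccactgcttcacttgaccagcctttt
Rny1: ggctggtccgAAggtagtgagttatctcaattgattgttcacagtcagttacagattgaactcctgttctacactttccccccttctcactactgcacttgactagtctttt
Rnu11: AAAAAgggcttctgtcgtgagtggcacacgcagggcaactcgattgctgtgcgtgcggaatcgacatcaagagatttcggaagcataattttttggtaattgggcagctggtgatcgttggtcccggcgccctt
Snord12: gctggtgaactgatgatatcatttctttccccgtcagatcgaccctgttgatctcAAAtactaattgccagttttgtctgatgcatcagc

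Bc1, a dendritic RNA of rodent neurons known as a repressor of translation, fell further than any other noncoding row named by the rule. It had 17391, 17066 and 18490 counts in the total libraries and 29, 32 and 39 in the ribosome libraries. That is 5868, 5828 and 6024 CPM against 24.5, 24.8 and 32.6, a 216-fold lower level (log2 ratio -7.76, SE 0.0607, adjusted p = 1.32e-35, edgeR). Its sequence holds an unbroken run of 23 A, while the longest run in the 38 other small RNAs with a sequence was 8. Rny3 and Rny1, Y RNAs that bind the Ro60 protein, have longest A runs of 2 each and went opposite ways. Rny3 had 1178, 1143 and 1208 CPM in total mRNA and 92.8, 85.4 and 105.3 in ribosome-contained mRNA (log2 ratio -3.64, SE 0.0578). Rny1 had 557, 501 and 558 CPM against 1546, 1881 and 1671 (log2 ratio 1.66, SE 0.0758). The 7SL RNAs Rn7s1 and Rn7s2, the RNA part of the signal recognition particle that docks on ribosomes making secreted proteins, were lower, at log2 ratios of -2.27 and -2.50. They are near-identical copies between which reads could have been split.

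Small nuclear RNAs of the minor spliceosome were higher. Rnu11 had 34, 20 and 43 counts in the total libraries and 1455, 1534 and 1206 in the ribosome libraries, a 105-fold higher level (log2 ratio 6.71, SE 0.0911, adjusted p = 4.75e-30, edgeR). Rnu12, its partner, had 317, 305 and 329 CPM against 1611, 1527 and 1654 (log2 ratio 2.33, SE 0.0378). Of 29 small nucleolar RNA (snoRNA) rows, which mostly guide chemical modification of ribosomal RNA, 26 were higher, 0 lower, and the median log2 ratio was 2.08. Snord12 had 9.45, 10.9 and 7.49 CPM against 511, 555 and 519 (log2 ratio 5.82), Snord85 a log2 ratio of 5.85 and Snora74a one of 5.47. Snord12 lies within Zfas1 and Snora74a within Snhg4, and it is not given how reads of a snoRNA and its host were told apart. A further 43 snoRNA rows passed the filter only in the ribosome libraries and 8 only in total mRNA, and these were not tested. Vaultrc5, an RNA of the vault particle, rose by 5.11 on the log2 scale, Rmrp, the RNA of RNase MRP, by 3.43 and Rpph1, the RNA of RNase P, by 1.88. Rn7sk, which holds the elongation factor P-TEFb inactive, was slightly lower (log2 ratio -0.55, SE 0.0968).

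The 13 messages of the mitochondrial genome, which are read by the organelle's own ribosomes and encode core subunits of the respiratory chain, were mostly lower. In all, 12 fell, 9 of them at least 2-fold, and 1 rose; the median log2 ratio was -1.30, and under total counts 11 were lower and 2 higher. Among complex I subunits, mt-Nd4 had 13178, 13588 and 14198 CPM in total mRNA and 2273, 2491 and 2212 in ribosome-contained mRNA (log2 ratio -2.55, SE 0.0362, adjusted p = 9.61e-30, edgeR). The ranges were far apart, and this was the lowest ratio of the 13. mt-Nd1 followed at -2.11, mt-Nd2 at -1.31, mt-Nd5 at -1.02 and mt-Nd3 at -0.54. mt-Nd4l, which shares a transcript with mt-Nd4, was close to equal at 1183, 1250 and 1233 against 1035, 1196 and 1058 CPM; its log2 ratio of -0.16 turned to 0.19 under total counts. mt-Nd6, the only one encoded on the other strand, had 544, 622 and 609 CPM against 672, 805 and 728 and rose, though it overlaps mt-Nd5 and the strand used in counting is not given (log2 ratio 0.31, SE 0.0412, adjusted p = 1.05e-07, edgeR).

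The remaining mitochondrially encoded messages belong to complexes III to V. mt-Co1, the catalytic subunit of cytochrome oxidase, was the most counted row, with 46828, 48755 and 48280 CPM against 19541, 20404 and 18474 (log2 ratio -1.30). mt-Co2 stood at -1.32, mt-Co3 at -1.52 and mt-Cytb, the complex III subunit, at -1.28. The 2 ATP synthase messages, which overlap on 1 transcript, differed: mt-Atp6 was at -2.14 (SE 0.0348) and mt-Atp8 at -0.86 (SE 0.0439). Reads in such overlaps could have been assigned to either gene.

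Nuclear-encoded subunits of the same complexes were mostly higher. Of 74 listed, 54 were measured, of which 44 rose and 3 fell (50 and 2 under total counts), with a median log2 ratio of 0.58 against 0.03 over all rows. Complex I had 23 of 28 higher and a median of 0.59, complex III 6 of 8 and 0.63, complex IV 7 of 8 and 0.69, and the ATP synthase 6 of 7 and 0.47. Atp5b, the catalytic beta subunit, had 4594, 4662 and 4633 CPM in total mRNA and 8295, 8188 and 8187 in ribosome-contained mRNA (log2 ratio 0.83, SE 0.0286, adjusted p = 1.47e-20, edgeR). Ndufa5 had the highest ratio, 1.59, and Ndufb5 the lowest, -1.44; each is a gene with more than 1 accession. Mitochondrial ribosomal proteins, which build the organelle's ribosome, were more mixed: 20 of 45 rose and 8 fell, with a median of 0.17 (30 and 0 under total counts). Mrps22 was at 1.46 and Mrpl50 at -0.63, the latter not passing under total counts (adjusted p = 0.0636, edgeR). A further 8 mitochondrial ribosomal proteins and 6 nuclear-encoded subunits passed the filter in total mRNA only and were not tested.

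**Figure D2:**
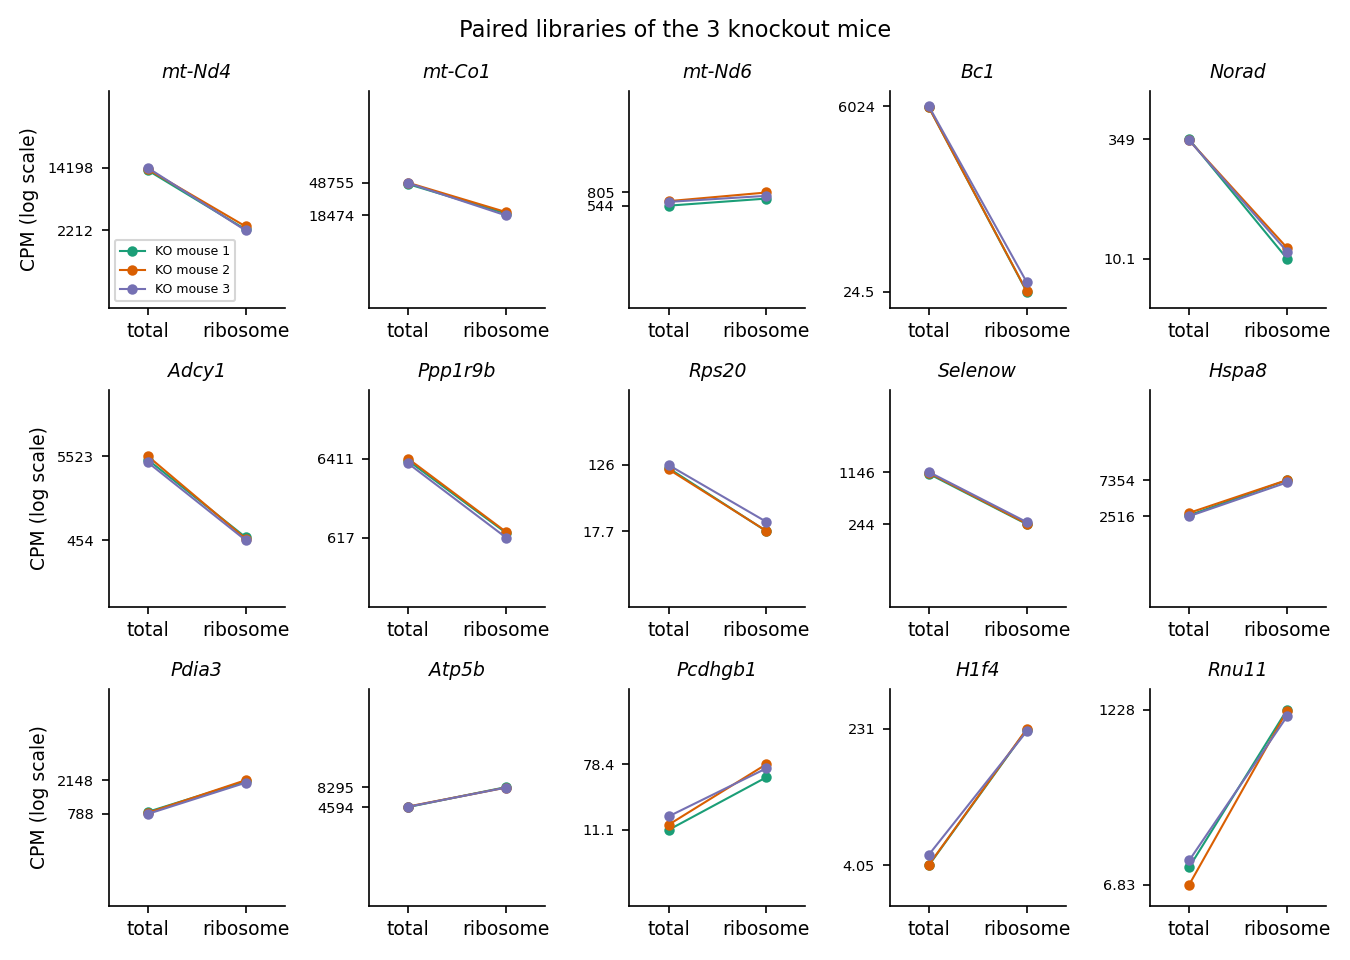
Levels in CPM, on log axes of equal span, of 15 rows in the total and the ribosome-contained library of each KO mouse; lines join the libraries of 1 mouse, and the tick labels give the lowest and highest value of each row. The 3 mice run nearly in parallel, from 6024 down to 24.5 CPM for Bc1 and from 6.83 up to 1228 CPM for Rnu11.

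Messages of the cytosolic ribosome were mostly lower. Such mRNAs start with a run of pyrimidines, the terminal oligopyrimidine (TOP) tract, through which mTOR signalling controls their entry into ribosomes. Of 31 ribosomal protein rows measured out of 82 listed, 24 fell, 3 rose and 4 did not pass, with a median log2 ratio of -0.74 (17 lower and 6 higher under total counts). Another 23 listed genes passed the filter in total mRNA only and were not tested, so the split and the median leave them out. The small subunit had 10 of 13 lower and the large subunit 14 of 18. Rps20 had 115.4, 111.3 and 126.4 CPM in total mRNA and 17.7, 17.8 and 23.4 in ribosome-contained mRNA (log2 ratio -2.58, SE 0.144, adjusted p = 1.49e-15, edgeR). Rplp1, an acidic protein of the ribosomal stalk, had 269.9, 276.3 and 299.4 CPM against 56.5, 79.1 and 86.9 (log2 ratio -1.92). The exceptions were Rpl24 (0.38), Rps25 (0.75) and a row of Rpl7a (2.15), the last a predicted transcript of a gene with 2 accessions. Ribosomal protein genes have many processed pseudogenes, and how reads that match several places were counted is not given.

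Other mRNAs with a TOP tract did not share 1 direction: 5 of 12 rose and 6 fell, with a median of -0.01, which turned to 0.33 under total counts. Eef1a1, which brings aminoacyl-tRNA to the ribosome, was at -0.55 and Tpt1 at -0.65, while Eif3e and Eif3m were at 0.90 and 0.73. Initiation factors in general were higher in 14 of 22 rows and lower in 2, with a median of 0.53. Eif1, which guards start codon choice, had the lowest ratio, with 298.6, 312.5 and 304.3 CPM against 45.6, 39.6 and 63.5 (log2 ratio -2.63, SE 0.102). All 6 measured cytosolic aminoacyl-tRNA synthetases, which charge tRNAs, were higher, from Rars at 0.39 to Gars at 0.92. Gars had 513, 521 and 499 CPM against 971, 968 and 965.

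Measured protein folding and turnover genes were mostly higher. A further 5 cytosolic chaperones, 3 proteasome subunits and 2 endoplasmic reticulum chaperones passed the filter in total mRNA only and were not tested. All 14 measured cytosolic chaperones rose, with a median of 0.97, among them Hspa8, a constitutive Hsp70, with 2584, 2775 and 2516 CPM against 7323, 7354 and 6850 (log2 ratio 1.45, SE 0.0301, adjusted p = 7.6e-26, edgeR). Subunits of the chaperonin that folds actin and tubulin ranged from 0.93 for Cct8 to 1.09 for Cct3. Of 27 proteasome subunits, 22 rose and 1 fell, with a median of 0.74. Psmb2, at 1.58, and Psmb3, at 1.42, had the highest ratios, and Psmd7, at -0.30, was the one that fell, but its ratio was 0.05 under total counts. In the endoplasmic reticulum, 6 of 11 chaperones rose and 2 fell (9 and 0 under total counts). Pdia3, a disulphide isomerase, had 839, 816 and 788 CPM against 2075, 2148 and 1992 (log2 ratio 1.35), and Dnajb9 and Dnajc3, co-chaperones of the unfolded protein response, were at -0.45 and -0.17, but neither stayed lower under total counts, where Dnajc3 was at 0.17 and Dnajb9 did not pass.

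Tubulins and actin, with 10 of 10 rows higher and a median of 0.78, glycolytic enzymes, with 5 of 6 higher and 0.84, and vacuolar ATPase subunits, with 11 of 14 higher and 0.42, lay on the same side. Tubb3, the neuronal beta tubulin, had 1282, 1187 and 1247 CPM against 2690, 2644 and 2774 (log2 ratio 1.13). Tuba1a was the lowest of its list, at 0.12, and its call was lost without the mouse block (adjusted p = 0.0815, edgeR), with DESeq2 (adjusted p = 0.211), at a minimum count of 50, with mitochondrial and noncoding rows out of the scaling, and without KO mouse 1 or 2 (adjusted p = 0.213 and 0.0733, edgeR). Pgk1, an ATP-forming enzyme of glycolysis, was at 1.04, and Aldoc, at -0.26, was the 1 glycolytic row that fell, though it stood at 0.09 under total counts and did not pass with DESeq2 (adjusted p = 0.0933). Neuropeptides and granins, cargo of dense-core vesicles, rose in 11 of 14 rows with a median of 0.66. Pmch, the melanin-concentrating hormone precursor, had 71.5, 105.2 and 86.7 CPM against 181.4, 253.0 and 193.0 (log2 ratio 1.25), and Pcsk1n, a prohormone convertase inhibitor, was the 1 that fell, at -1.001.

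Clustered protocadherins, cell surface proteins by which neurons tell self from other, had the highest median among the lists of protein families apart from histones. Of 58 genes, 52 were measured, 48 were higher, 36 of them at least 2-fold, and 0 were lower; the median was 1.48. The gamma cluster had 21 of 21 higher with a median of 1.75, the alpha cluster 9 of 10 with 1.43 and the beta cluster 18 of 21 with 0.92. Pcdhgb1 had 11.1, 12.98 and 16.6 CPM in total mRNA and 53.2, 78.4 and 69.3 in ribosome-contained mRNA (log2 ratio 2.30, SE 0.158). Pcdhb3 did not pass, with 24.6, 22.2 and 23.1 CPM against 18.6, 24.8 and 26.7. Alpha and gamma isoforms share their last exons with all members of their cluster, so reads from shared exons could not be told apart; beta genes have a single exon each.

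Replication-dependent histone messages end in a stem-loop in place of a poly(A) tail. Only 6 of 66 listed were measured, 5 higher and 1 lower, with a median of 2.83. H4c4 had 10, 16 and 17 counts in the total libraries and 782, 848 and 841 in the ribosome libraries, a 139-fold higher level and the highest ratio of all protein-coding rows tested (log2 ratio 7.12, SE 0.106, adjusted p = 2.89e-29, edgeR). H1f4 had 4.05, 4.10 and 5.54 CPM against 227, 231 and 216 (log2 ratio 5.60). H1f2 varied more between mice, with 44.5, 28.0 and 83.1 CPM against 431, 351 and 505 (log2 ratio 3.06). H2bc21 was lower (log2 ratio -1.42, SE 0.173). Many histone genes encode near-identical sequences, so single rows are uncertain.

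Selenoproteins, in which a stop codon is read as selenocysteine, were mostly lower: 13 of 17 fell and 1 rose, with a median of -0.72 (10 and 4 under total counts). Selenow had 1086, 1118 and 1146 CPM against 244, 248 and 259 (log2 ratio -2.16, SE 0.0458). Dio2, the deiodinase that activates thyroid hormone, was at -1.85, and Gpx4, a guard against lipid peroxidation, at -1.45 in a gene with more than 1 accession. Selenoo was the 1 that rose, at 0.33, a call lost with DESeq2 (adjusted p = 0.0510) and without KO mouse 3 (adjusted p = 0.0504, edgeR). Among 4 measured genes of the integrated stress response, Ppp1r15b fell (log2 ratio -0.73), while Chac1 (0.08), Nupr1 (0.12) and Ifrd1 (-0.17) did not pass. Ftl1, the ferritin light chain held back by iron regulatory proteins when iron is scarce, was at -1.92. Of the 3 iron-responsive mRNAs measured, 2 fell, Ftl1 and Epas1 (-0.46), and 1 rose, and of 11 polyamine synthesis genes only Srm, the spermidine synthase, was measured, at 0.45.

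**Figure D3:**
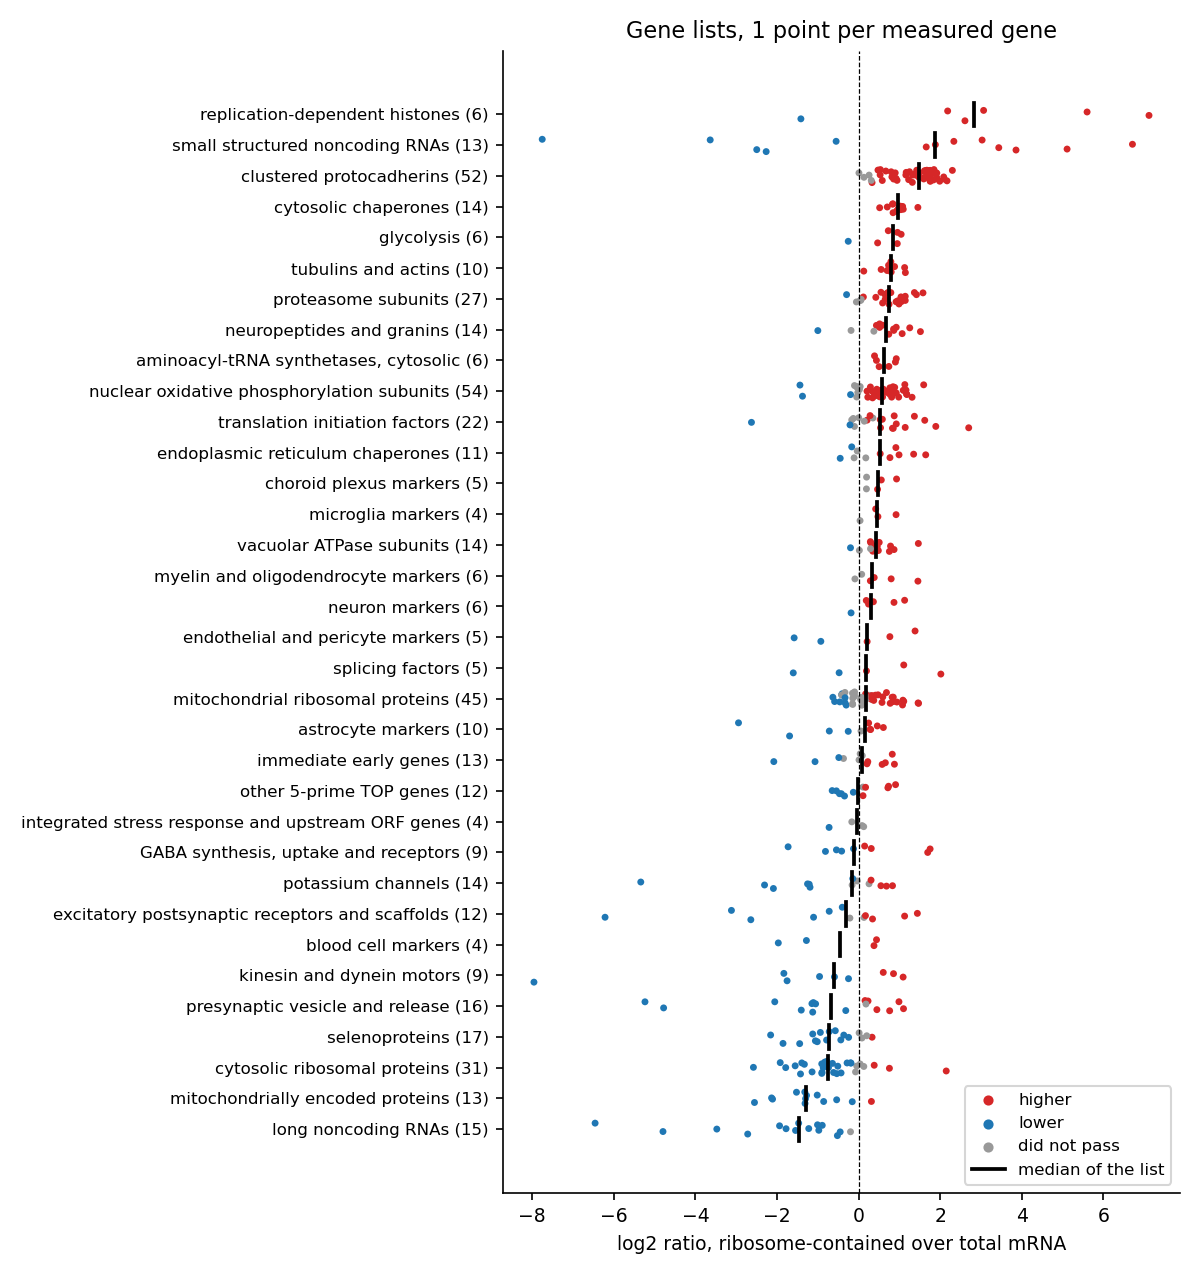
Each point is 1 measured gene of the lists with at least 4 measured members, by its most counted row; the x axis is the log2 ratio of ribosome-contained over total mRNA, red and blue points passed the test, and black bars mark the list medians. Medians run from -1.47 for long noncoding RNAs to 2.83 for histones.

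Synaptic genes went both ways. Of 16 presynaptic genes, 6 rose and 9 fell (median -0.69). Vamp2, the synaptic vesicle SNARE, had 5017, 5182 and 5151 CPM against 2429, 2339 and 2335 (log2 ratio -1.11), and the glutamate transporters Slc17a7 and Slc17a6 were at -1.15 and 1.10. Of 12 postsynaptic genes, 4 rose and 6 fell, with a median of -0.31 that turned to 0.04 under total counts and was -0.72 over the 7 genes with 1 accession. Ddn, a dendritically transported postsynaptic protein, had 2750, 2874 and 2590 CPM against 327, 325 and 294 (log2 ratio -3.12, SE 0.0399). Camk2n1, an inhibitor of CaM kinase II, was at -2.64 and Nrgn, a calmodulin-binding protein, at -1.11. Grm3 and Grm5, metabotropic glutamate receptors, were at 1.13 and 1.44. GABA genes (4 of 9 higher, 5 lower) and potassium channels (4 of 14 higher, 7 lower) had medians of -0.13 and -0.15, which turned to 0.22 and 0.19 under total counts. With the accessions of each gene summed, the potassium channel median was -1.18; 11 of the 14 genes have more than 1 accession. Motor proteins had 3 of 9 higher and 6 lower with a median of -0.59, or 0.18 over the 6 genes with 1 accession: Dync1h1, the dynein heavy chain, was at 0.85 with 3639, 3389 and 3342 CPM against 6825, 6047 and 5890, while Kif5c, a neuronal kinesin, was at -0.96. Immediate early genes rose in 6 of 13 rows and fell in 3, from Btg2 at -2.08 to Bdnf at 0.88, with Fos at 0.58. The Bdnf call was lost with DESeq2 (adjusted p = 0.151) and without KO mouse 2 (adjusted p = 0.0558, edgeR). Of 3 sodium and calcium channel rows, Scn2b was at 1.36 and Scn4b at -1.69. Of 5 splicing factors 3 rose and 2 fell, from Nova2 at -1.60 to Rbfox1 at 2.01. A further 11 splicing factors and 7 sodium and calcium channels passed the filter in total mRNA only and were not tested. The same held for 9 postsynaptic genes, 7 potassium channels and 5 presynaptic genes, so these splits leave out genes low in the ribosome libraries.

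Cell type markers were on both sides of 0 within most types. Neuron markers rose in 5 of 6 rows (Nefl 0.87; Thy1 -0.19, but 0.16 under total counts), astrocyte markers in 5 of 10 with 4 lower (Gja1 0.60, Gfap -2.95), myelin markers in 4 of 6 with 0 lower, microglia markers in 3 of 4 with 0 lower and choroid plexus markers in 3 of 5 with 0 lower. Endothelial and pericyte markers split into 3 higher and 2 lower, from Rgs5 at -1.58 to Vtn at 1.38. These splits cover tested rows only. A further 3 myelin, 2 microglia and 2 neuron markers passed the filter in total mRNA alone, as did 1 astrocyte marker. Of untested myelin markers, Mbp had 730 to 846 counts in the total and 5 to 12 in the ribosome libraries. Mog had 283 to 413 and 0 to 1. The untested microglia marker Cx3cr1 had 32 to 42 and 1 to 5. Among untested neuron markers, Rbfox3 had 18 to 38 and 0 to 6, and Snap25 had 6 to 30 and 0 to 1. Syt1, also untested, had 0 in the total and 0 to 2 in the ribosome libraries. Ttr, the transthyretin of choroid plexus, had 3050, 2998 and 2987 CPM against 5439, 6035 and 5729 (log2 ratio 0.93). In whole brain, fewer cells of a type and less RNA per cell cannot be told apart, but both library kinds come from the same 3 brains. Haemoglobin rows split, with Hbb-bs at -1.97 and Hba-a1 at 0.38; both have near-identical copies. The Hba-a1 call was lost without the mouse block (adjusted p = 0.0606, edgeR), with DESeq2 (adjusted p = 0.225) and without KO mouse 2 or 3 (adjusted p = 0.181 and 0.113, edgeR), and that of Hba-a2 (0.44) with DESeq2 (adjusted p = 0.207) and without KO mouse 1 or 2 (adjusted p = 0.220 and 0.165, edgeR).

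The 12 lowest protein-coding rows were all from genes with more than 1 accession and speak only for 1 transcript model each. The lowest was Kif5a, a neuronal kinesin, with 2470, 2756 and 2533 CPM against 8.44, 10.9 and 11.7 (log2 ratio -7.96, SE 0.0747), and others among the 12 were Zwint, Pgm2l1, Kcnc1, Cplx2, Bsn, Rnf130, Pnmal1, Camta1, Ankrd40 and Gprc5b. Cplx2, a regulator of vesicle fusion, had 6302, 6554 and 6471 CPM against 168, 183 and 160, and the coding sequence fills 8.16% of its transcript. Of protein-coding rows from genes with more than 1 accession, 15 of 1163 were at least 16-fold lower, against 0 of 2603 from genes with 1 accession. For Kcnq3, the predicted noncoding transcript named here rose (log2 ratio 0.68), but the sum over its 3 accessions fell by 3.67 on the log2 scale. The 12 highest were H4c4, H1f4, Ppia, H1f2, Rnf225, Tmem50a, Eif4h, H2ac18, Aldoart1, Eps15, Psd3 and Aldoart2. Ppia, the abundant prolyl isomerase cyclophilin A, has many pseudogenes, and Aldoart1 and Aldoart2 are copies derived from an aldolase gene, so their values are uncertain.

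Among genes with 1 accession, a selection added after the values were seen, the lowest ratios included those of Purb (-3.89), Tomm20 (-3.80), Gid4 (-3.77), Lime1 (-3.50), Adcy1 (-3.40), Rhoq (-3.39), Coa5 (-3.39), Cenpb (-3.25), Ppp1r9b (-3.13), Ddn and Hrk (-3.06). Purb, a single-stranded nucleic acid binding protein found in neuronal RNA granules, had 1939, 1895 and 1860 CPM against 149, 112 and 124. Adcy1, the neuronal calcium-stimulated adenylyl cyclase, had 4967, 5523 and 4584 CPM against 495, 475 and 454. Ppp1r9b, the spine protein spinophilin, had 6037, 6411 and 5567 CPM against 710, 729 and 617. The total and ribosome ranges of all 3 are far apart. Tomm20, a mitochondrial import receptor, has a coding sequence of only 8.87% of its transcript and Purb one of 11.7%. At the upper end of this selection, besides histones and the copies named above, stood Plcxd3 (2.37), Pcdhgb1, Uprt (2.18) and Pcdhb2.

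The ratio rose with the share of the transcript that is coding. Among 2570 nuclear protein-coding genes with 1 accession and GENCODE lengths (99.2% of those tested), the median log2 ratio was -0.83 where at most 20% of the transcript was coding (282 genes), -0.26 for 20% to 40% (736), 0.11 for 40% to 60% (783), 0.38 for 60% to 80% (537) and 0.42 above 80% (232). In the lowest group 74.5% of rows were lower and 13.5% higher, in the highest 21.6% and 59.5%. Spearman's rho across genes, as a description only since genes are not independent replicates and share libraries, was 0.41 for the coding share, -0.34 for the length of the 3′ untranslated region, -0.28 for the GC content of the last codon position, 0.16 for coding length and 0.06 for the share of phenylalanine codons. Counts were over whole transcripts, whereas ribosomes sit mainly on coding sequence, and how much of the pattern this makes was not tested. The gene groups above did not all follow it: ribosomal protein genes with 1 accession had a median coding share of 66.4% and a median ratio of -0.74, and proteasome genes 70.9% and 0.72. The 9 selenoprotein genes with 1 accession had 35.9% and -0.94, against 46.4% and 0.02 over all 2570 genes. The part of the coding share in the selenoprotein ratios was not tested.

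**Figure D4:**
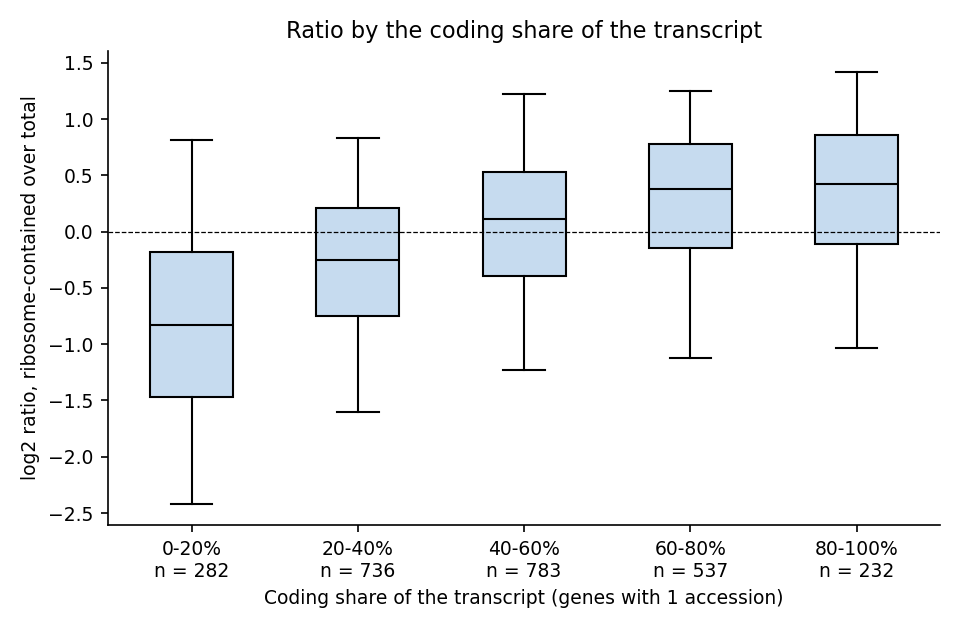
Log2 ratio of ribosome-contained over total mRNA (y axis) of 2570 nuclear protein-coding genes with 1 accession, by the coding share of the transcript (x axis); boxes span the quartiles with the median, and whiskers reach the percentiles 5 and 95. Medians climb from -0.83 to 0.42.

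The last question was whether these ratios differ from those of WT brain. Across 3953 rows that could be tested in both genotypes, which share no animals, Pearson's r of the log2 ratios was 0.979, as a description. In a model of all 12 HiSeq libraries with mouse as a block, the interaction of genotype and library kind passed for 4 of 4601 rows (0.0869%): 2 (0.0435%) with a higher ratio in KO and 2 (0.0435%) with a lower one, while 299 had an unadjusted p under 0.05. With DESeq2, and with edgeR without the mouse block, 0 rows passed in either direction, while 53 rows with DESeq2 and 228 without the block had an unadjusted p under 0.05. Leaving out 1 mouse at a time moved the count of rows with a higher ratio in KO to 8, 5 and 8 without KO mouse 1, 2 and 3 and to 13 without WT mouse 2, and that of rows with a lower ratio to 5 and 4 without KO mouse 1 and 2.

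The 2 higher rows were mitochondrially encoded. For mt-Nd1, total mRNA was at 18375, 15149 and 16474.5 CPM in WT mice 1 to 3 and at 14265, 16349 and 15549 in KO mice, and ribosome-contained mRNA at 3304, 3062 and 3413 in WT and 3429, 3843 and 3609 in KO. The total ranges overlap, and the ribosome ranges are adjacent but do not. The log2 ratio was -2.36 in WT and -2.11 in KO, each fitted, here and below, in its own 3 mice. The model of all 12 libraries gave an interaction of 0.27 (SE 0.0462, adjusted p = 0.000641, edgeR). Interactions and CPM here and below come from that model and its scaling, so an interaction can differ slightly from the difference of the 2 ratios. For mt-Co3, total mRNA was at 17829.8, 15529 and 15883 CPM in WT and 14627, 15803 and 15289 in KO, and ribosome-contained mRNA at 4608, 4655 and 5083 in WT and 5318, 5587 and 5287 in KO. Again the ribosome ranges did not overlap and the total ranges did. The mt-Co3 log2 ratio was -1.78 in WT and -1.52 in KO, an interaction of 0.28 (SE 0.0526, adjusted p = 0.00782, edgeR), which missed the threshold with limma-voom (adjusted p = 0.757) and without WT mouse 1 (adjusted p = 0.0503). The interaction was above 0 for all 13 mitochondrially encoded rows, against 51.0% of all rows. It ran from 0.10 for mt-Nd6 and mt-Nd5 to 0.33 for mt-Nd3, with a median of 0.21 against 0.00443 over all rows. Of the 13, 9 had an unadjusted p under 0.05 (edgeR), against 299 of 4601 over all rows. The 13 mitochondrially encoded rows share transcripts, libraries and scaling and are not independent.

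Nova2, a neuronal splicing regulator, had a lower ratio in KO. Its total mRNA was at 1214, 1274 and 1219 CPM in WT and 1398, 1362 and 1316 in KO, and its ribosome-contained mRNA at 516, 526 and 502 in WT and 464, 457 and 446 in KO, with no overlap in either kind. The log2 ratio was -1.27 in WT and -1.60 in KO, an interaction of -0.31 (SE 0.0621, adjusted p = 0.00625, edgeR). The row of Tmpo, a lamina-associated protein, is 1 of 8 accessions. Its total mRNA was at 148, 120 and 114 CPM in WT and 198, 185 and 202 in KO, and its ribosome-contained mRNA at 61.3, 74.99 and 56.2 in WT and 52.5, 52.4 and 64.0 in KO. Its total ranges did not overlap, its ribosome ranges did, and its log2 ratio was -1.004 in WT and -1.82 in KO (interaction -0.79, SE 0.161, adjusted p = 0.00671, edgeR). Summing the accessions of Tmpo ended this call (adjusted p = 0.228), as did leaving out WT mouse 2 (adjusted p = 0.0761). The next rows were Rn7sk, with an interaction of -0.52, and mt-Co1, with 0.18 (adjusted p = 0.0769 each, edgeR). Phenylalanine codons are read by a tRNA that is a known substrate of Ftsj1. In 5 groups of 803 to 807 transcript rows ordered by their share of these codons, the median interaction lay between 0.000471 and 0.00868.

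**Figure D5:**
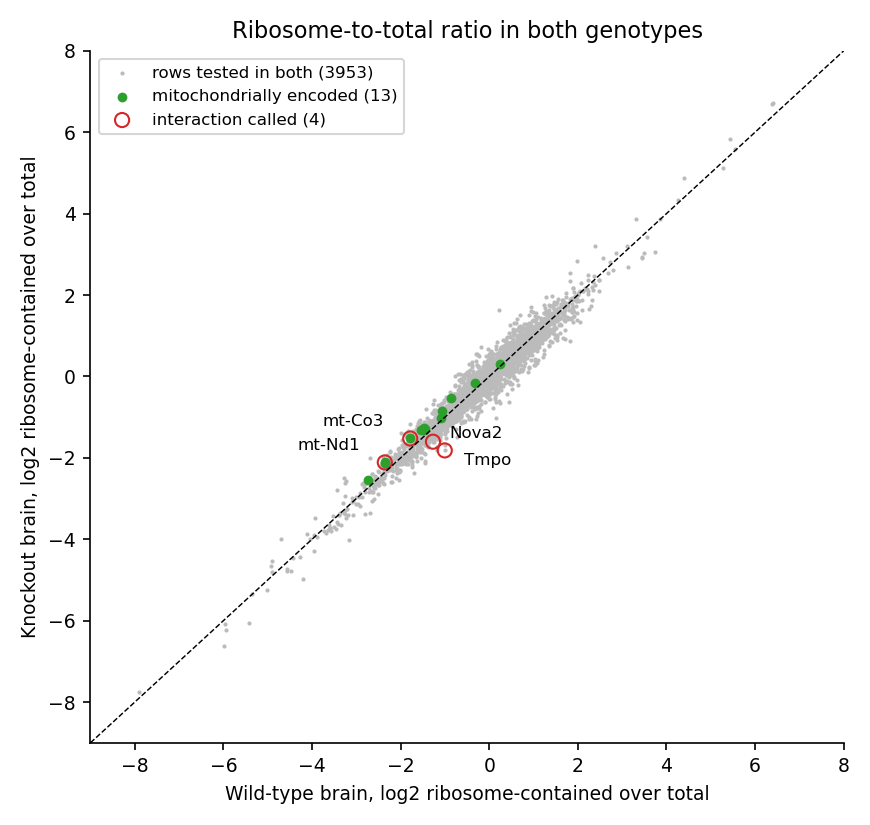
Log2 ratio of ribosome-contained over total mRNA in WT brain (x axis) and in KO brain (y axis), each fitted in its own 3 mice; grey points are rows, green points mitochondrially encoded rows, and red circles the 4 rows whose interaction passed. The dashed line marks equal ratios, and mt-Nd1 and mt-Co3 lie above it, Nova2 and Tmpo below.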

How the data were processed

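For the 12 HiSeq libraries the deposited values are unnormalized counts by RefSeq accession, whole numbers whose sum differs between libraries. Bowtie2, HISAT2, HTSeq and the build mm10 are named in the submitters' processing notes, and no versions, strand setting or treatment of reads that match several places is given in the sources used here. Accessions were matched to symbols, classes and positions with the RefSeq annotation of GRCm38 (86032 of 106519 rows, 97.9% of the KO counts), and transcript lengths and small RNA sequences were taken from GENCODE M21. Each accession stayed a row of its own. Rows had to pass edgeR's filter (minimum count 10, minimum total 15) in both library kinds of the 3 KO mice, which took about 3.00 CPM in total and 9.44 CPM in ribosome-contained mRNA. A further 3314 rows passed in total mRNA only and were not tested, so the ratios leave out the rows lowest in the ribosome libraries. Counts were scaled by TMM and tested with edgeR's quasi-likelihood test with the mouse as a block and Benjamini-Hochberg adjustment over all rows. The labels give both libraries of a number to the same mouse, and their deviations from the group means correlated at 0.171, 0.185 and 0.201. The contrast with WT was an interaction of genotype and library kind over 12 libraries. In the text, higher, lower, rose and fell mean an adjusted p under 0.05 unless a value is said not to have passed.

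Named genes were the 12 highest and 12 lowest coding and the 5 highest and 5 lowest noncoding rows by log2 ratio among called rows with at least 20 CPM, the 2 highest and 2 lowest of each of 37 gene lists by their most counted row, and 6 interaction rows. The members and lists were chosen with earlier results of these data known. Alternatives were other scalings, filters and tools, summed accessions, and leaving out each mouse. The tests were also run on simulated counts in which a small part of the rows changed, at most 2-fold and evenly up and down. In the data 76.5% of rows passed, so that run cannot show how the tests behave here. R 4.3.3, edgeR 4.0.16, limma 3.58.1, DESeq2 1.42.0, Python 3.11.15, pandas 2.3.3, numpy 2.4.6 and matplotlib 3.10.9 were used. Some named genes and sequences are not reported here.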

Additional observations from a re-analysis of the deposited data

Results flagged for a closer look

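Whether KO and WT differ in how a row's ribosome-contained level relates to its total level was tested with edgeR as an interaction over 12 libraries, and 4 rows passed. It was 0.27 for mt-Nd1 (SE 0.0462, adjusted p = 0.000641) and 0.28 for mt-Co3 (SE 0.0526, adjusted p = 0.00782), so that the shortfall of these mitochondrially encoded messages in ribosome-contained mRNA was smaller in KO than in WT brain. It was -0.31 for Nova2 (SE 0.0621, adjusted p = 0.00625) and -0.79 for Tmpo (SE 0.161, adjusted p = 0.00671), both lower in KO. None of the 4 rows passed with DESeq2 or with edgeR without the mouse block, and mt-Co3 did not pass with limma-voom. Mitochondrially encoded rows took 13.7% ± 0.504 of total counts in KO and 14.2% ± 0.939 in WT, and 6.33% ± 0.306 of ribosome counts in KO and 5.78% ± 0.253 in WT (SD, n = 3 mice each). The ribosome libraries of WT mice held 1165451 to 1560192 counts and those of KO mice 1055741 to 1142062. The total libraries held 2024748 to 3302937 counts in WT and 3301634 to 3459406 in KO. The part of depth in these differences was not tested.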

How the results depend on the processing

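Of the counts of rows higher and lower in ribosome-contained mRNA, 1583 and 1541, the number changed by more than 1.5 times for 941 higher and 944 lower at a minimum count of 50, for 4443 lower without a filter and for 3385 lower where passing in either kind was enough, a setting added after seeing the data. The at least 2-fold counts of 480 higher and 685 lower became 946 and 441 under total counts, 1013 and 3738 without a filter, 163 and 338 at a minimum count of 50, 1146 and 2698 with the filter in either kind, and 260 and 412 over genes with 1 accession, where fewer rows were tested. Without the replicate block the calls were 1519 and 1499, with 480 and 686 at least 2-fold. Of 3124 calls, 3018 kept their direction and call without it. DESeq2 gave 1244 and 1296, limma-voom 1610 and 1535, and leaving out a KO mouse 1472 to 1490 and 1466 to 1515. The nuclear coding share was 10.4 percentage points higher in ribosome-contained mRNA, or 9.64 over matched rows alone.

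The interaction counts of 2 and 2 became 0 and 0 without the replicate block and with DESeq2, 7 and 4 without a filter, 7 and 5 with the filter in either kind, and 2 to 13 and 2 to 5 when a mouse was left out; the lower count was 4 at a minimum count of 50 and with limma-voom and 1 with summed accessions. Without the block the adjusted p was 0.960 for mt-Nd1, 0.122 for Nova2 and Tmpo, and 0.233 for mt-Co3.

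Some values near 0, and that of Kcnq3, changed sign. Under total counts, and with the filter in either kind, Aldoc was at 0.0887 and 0.10, Dnajc3 at 0.17 and 0.18, Thy1 at 0.16 and 0.16, Psmd7 at 0.0484 and 0.0547, Oxt at 0.16 and 0.16, Ifrd1 at 0.18 and 0.18, Psmd9 at 0.29 and 0.29, Atp6v0b at 0.14 and 0.15, Opalin at 0.25 and 0.26, Eif5b at 0.13 and 0.14, mt-Nd4l at 0.19 and 0.19 and Snhg1 at 0.14 and 0.15. Without a filter Psmd9 was at 0.10 and Opalin at 0.0637. At a minimum count of 50 Atp6v0c was at -0.0923, Chac1 at -0.0251 and Ermn at -0.0355. With mitochondrial and noncoding rows out of the scaling, Atp6v0c was at -0.00913 and Pcdhb3 at -0.0192, and Pcdhb3 was at -0.00131 with DESeq2 size factors and -0.00307 with DESeq2. Summed accessions put Kcnq3 at -3.67, although its named row was called higher. Leaving out a KO mouse gave -0.12 to 0.14 for Tyrobp, -0.0289 to 0.0467 for Atp6v0c, -0.0149 to 0.305 for Msrb1, -0.14 to 0.29 for Nupr1, -0.0149 to 0.18 for Chac1, -0.0766 to 0.23 for Pcdhb20 and -0.12 to 0.18 for Pcdhb3. The cause of these changes was not tested. Over the single genes and lists, 2808 alternative values kept direction and call or stayed within the spread. Of the rest, 134 list values moved further, 58 calls were lost, 37 were gained and 42 values changed sign. Genes under the filter at a minimum count of 50, or with more than 1 accession where those were left out, gave no value there. The ribosome libraries, at 1055741 to 1142062 counts, limit what can be tested among low rows.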

Other observations

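Transcribed pseudogenes held 0.426% ± 0.00497 of the counts in total and 0.705% ± 0.0151 in ribosome-contained mRNA of KO brain (SD, n = 3 mice), and 32 of 51 tested rows were higher and 10 lower (median log2 ratio 0.71). Rows that matched no gene held 2.41% ± 0.0982 and 1.28% ± 0.0175 of the counts, with 57 of 135 tested rows higher and 47 lower. Among the 132 rows that passed the filter in the ribosome libraries only, 75 were protein-coding and 43 were snoRNA, and among the 3314 that passed in total mRNA only, 2255 were protein-coding and 388 lncRNA.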
